A study of Homo sapiens with 18 samples.

Results

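The 10 transcripts described here are the messenger RNAs that human mitochondria make from the heavy-strand transcript. They were chosen by Ensembl ID, as the heavy-strand protein-coding genes MT-ND1 (ENSG00000198888), MT-ND2 (ENSG00000198763), MT-CO1 (ENSG00000198804), MT-CO2 (ENSG00000198712), MT-ATP6 (ENSG00000198899), MT-CO3 (ENSG00000198938), MT-ND3 (ENSG00000198840), MT-ND4 (ENSG00000198886), MT-ND5 (ENSG00000198786) and MT-CYB (ENSG00000198727). The rule uses no measured value, but it was set with earlier results of these data known. ATP8 and ND4L, whose reading frames lie on the same messengers as MT-ATP6 and MT-ND4, are not among them. All 10 were present and tested in each of the 4 deposited tables, which list 60666 gene IDs in each of the 3 IP tables and 34429 in the input table. The cells were U373-MG, an established human glioblastoma line, in which retroviral transduction introduced FLAG-tagged ADAR3 with a mutated R-domain (R-mutant), the wild-type protein with the same tag (ADAR3 WT) or only the empty resistance vector (control). All were grown with G418 and UV-crosslinked before lysis, and RNA was sequenced from FLAG immunoprecipitates (IP) and from input, with 3 libraries in each of 6 groups. The exogenous proteins were made from retroviral vectors, and neither a promoter nor a clone is named in the labels.

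Mitochondrial DNA is transcribed from both strands as long precursors, and most messenger RNAs are cut out of the heavy-strand precursor between flanking tRNAs. The proteins they encode are core membrane subunits of the respiratory chain and of ATP synthase, which produce ATP by oxidative phosphorylation. RNAs from the opposite strand are complementary to these messengers, and paired mitochondrial RNA is a known source of double-stranded RNA in cells. ADAR3 belongs to the ADAR family of proteins that bind double-stranded RNA, but no editing by it is detected. Its R-domain, rich in arginine, contacts single-stranded RNA, and the study's question was what that domain contributes to the set of RNAs bound.

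In RefSeq (GRCh38.p14) the genes run along the mitochondrial genome (MT) from MT-ND1 at MT:3307-4262 to MT-CYB at MT:14747-15887, and each is a protein-coding gene. MT-ND3 is the shortest, with 346 bases at MT:10059-10404, and MT-ND5 the longest, with 1812 bases at MT:12337-14148. MT-ND5 ends at the base before ND6 (MT:14149-14673), which is encoded on the other strand. As background, the mature MT-ND5 messenger is known to run on past its coding region through sequence antisense to ND6. MT-ATP6 (MT:8527-9207) overlaps ATP8 by 46 bases and shares 1 base with MT-CO3 (MT:9207-9990). MT-ND4 (MT:10760-12137) overlaps ND4L by 7 bases. The libraries were strand-specific per the labels, but the strand setting of the counting is not given in the sources used here, so counts of these overlapping genes are uncertain at their borders.

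Nuclear copies of mitochondrial DNA are a further source of shared reads. RefSeq names between 25 (MT-ND3) and 58 (MT-CO1) nuclear pseudogene copies for a member, with 45 for MT-ND5. A run of copies on chromosome 1, from MTND1P23 at position 629062 to MTCO3P12 ending at 634922, holds copies of 6 members, MT-ND1, MT-ND2, MT-CO1, MT-CO2, MT-ATP6 and MT-CO3. The other 4 members have no copy in that run. How reads matching several places were counted is not given in the sources used here, so values of the 6 members may include or lack reads of these copies.

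Heavy-strand messengers were among the most abundant RNAs in these libraries. In the means that the authors deposited, 9 of the 10 stood among the 25 highest mean normalized counts, in each of the 4 comparisons. The exception was MT-ND3, a small complex I subunit, whose mean in the authors' deposited input table was 17843 (rank 202). Together the members made up between 4.11% and 4.36% of the summed mean normalized counts of the IP tables, and 5.03% in the input table. The protocol in the labels names depletion of ribosomal RNA, while the molecule label reads polyA RNA. These means pool the libraries of the authors' model, so neither a value per library nor a spread of the level can be given.

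Per length, the input level (mean normalized count per kb, from the authors' deposited table and RefSeq gene lengths) was highest for the complex IV subunits. MT-CO3 had 409908 per kb, MT-CO2 308612 and MT-CO1 274187. MT-ATP6, a membrane subunit of ATP synthase, followed with 228236 per kb, then MT-CYB, the cytochrome b of complex III, with 180844. The complex I messengers were lower: MT-ND4 had 142658 per kb, MT-ND2 103523, MT-ND1 96644, MT-ND3 51568 and MT-ND5 45289. MT-ND5, which encodes a proton-pumping subunit of complex I, was thus last of the 10 per length in input.

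The place of MT-ND5 relative to MT-CO1 was higher in the IP tables than in the input table. Its level per kb was 30.6% of that of MT-CO1 in the IP table that sets R-mutant against ADAR3 WT, 26.3% in that of R-mutant over control and 24.4% in that of ADAR3 WT over control, against 16.5% in the input table. For MT-ND3 the shares of MT-CO1 were between 17.3% and 20.7% in the IP tables and 18.8% in the input table. Which libraries enter each mean is not stated, and the means of the IP tables may pool input libraries with IP libraries. These shares are therefore not IP levels, and they are a description without a test.

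**Figure D1:**
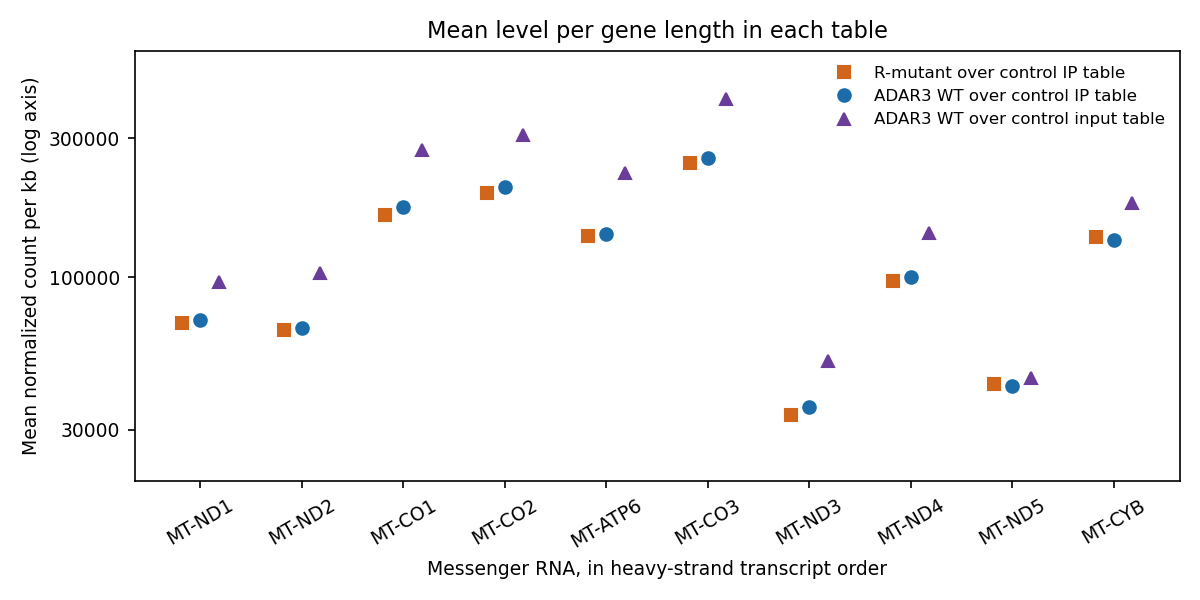
Mean normalized count per kb of gene length (log axis) for the 10 messengers in transcript order, from the IP table of R-mutant over control, the IP table of ADAR3 WT over control and the input table. The tables were normalized separately, and the means of the IP tables may also pool input libraries. The order of genes within a table can be read, but not the height of a gene between tables. MT-ND5 is lowest in input at 45289 per kb, while MT-ND3 is lowest in both IP tables.

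IP enrichment means here the IP-to-input ratio of one genotype divided by that of another, on the log2 scale. That reading comes from the tables' names and from the IP and input design, and it is not stated in the labels. Libraries were normalized to each other, so higher and lower are relative to the other RNAs. A gene was called when the deposited log2 fold over its standard error gave a Benjamini-Hochberg adjusted p under 0.05 in a two-sided normal test, adjusted over all tested genes. The labels do not say whether replicates were separate cultures, so p-values measure the spread between libraries, which may be technical.

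Of the 10 messengers, 1 was called higher in the FLAG IP in both comparisons with control, and it was MT-ND5 in each. None of the 10 was called lower. In ADAR3 WT over control its log2 fold was 1.42 ± 0.19 (SE) in the authors' deposited table, a 2.68-fold higher enrichment (normal test adjusted p 1.17e-11). The 95% interval of this log2 fold ran from 1.05 to 1.80. In R-mutant over control its log2 fold was 1.69 ± 0.22 (SE) in the authors' deposited table, or 3.22-fold (normal test adjusted p 3.66e-12), with an interval of 1.26 to 2.11. Among all 21121 genes tested in ADAR3 WT over control, 5.99% were called higher and 8.14% lower. In R-mutant over control, 5.38% of 21120 genes were called higher and 7.95% lower. The count of 1 member called in 10 is near these shares. Among the 383 genes whose mean reached 10000, a minimum chosen after seeing the data, in ADAR3 WT over control, MT-ND5 had the second highest fold (rank 2), and it also had rank 2 of 326 such genes in R-mutant over control.

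The ID above it in both comparisons was ENSG00000198695, at 4.85 ± 0.24 (SE) in ADAR3 WT over control in the authors' deposited table. Its log2 fold exceeded that of MT-ND5 by 3.42, with an interval of 2.58 to 4.27. In R-mutant over control the excess was 3.11, with a lower bound of 2.22. Intervals of a difference between genes use the sum of both standard errors, the largest that the difference can have, because the deposited tables hold no covariance. This ID was singled out after its value was seen. Because no ID was paired with a symbol, whether it is a mitochondrial gene, such as ND6 beside MT-ND5, was not determined. Whether it shares reads with MT-ND5 was not tested.

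None of the other complex I messengers was called. MT-ND1, which encodes a subunit at the joint of the membrane and matrix arms, had a log2 fold of 0.31 ± 0.22 (SE) in ADAR3 WT over control (adjusted p 0.422, normal test) in the authors' deposited table. In R-mutant over control its value was 0.62 ± 0.24 (adjusted p 0.0737, normal test) in the authors' deposited table. MT-ND2 had -0.23 ± 0.29 and MT-ND4 -0.01 ± 0.23 in ADAR3 WT over control in the authors' deposited table, both antiporter-like subunits of the membrane arm, as is MT-ND5. In R-mutant over control they had -0.04 ± 0.27 and 0.06 ± 0.22 in the authors' deposited table. MT-ND3 lay lowest of the 10 in both comparisons. Its log2 fold was -0.69 ± 0.31 in ADAR3 WT over control (adjusted p 0.130, normal test) in the authors' deposited table and -0.76 ± 0.33 in R-mutant over control (adjusted p 0.107, normal test).

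The 3 complex IV messengers encode the catalytic core of cytochrome c oxidase, and none of them was called. MT-CO1 had a log2 fold of 0.24 ± 0.20 (SE) in ADAR3 WT over control and 0.22 ± 0.22 in R-mutant over control in the authors' deposited tables. For MT-CO2 the values were -0.22 ± 0.24 and -0.23 ± 0.25 in the authors' deposited tables, in the same order. MT-CO3 had -0.58 ± 0.70 and -0.65 ± 0.26 in the authors' deposited tables, with normal test adjusted p of 0.683 and 0.0826. The standard error of MT-CO3 in ADAR3 WT over control was the largest of any member in any comparison and the other 9 members there had at most 0.31 in the authors' deposited table. The cause of this wide error was not tested.

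MT-ATP6 and MT-CYB also missed the threshold, on opposite sides of 0. MT-ATP6 had -0.55 ± 0.24 (SE) in ADAR3 WT over control (adjusted p 0.115, normal test) in the authors' deposited table and -0.48 ± 0.22 in R-mutant over control (adjusted p 0.144, normal test). MT-CYB had 0.34 ± 0.21 in ADAR3 WT over control (adjusted p 0.336, normal test) in the authors' deposited table and 0.55 ± 0.24 in R-mutant over control (adjusted p 0.110, normal test). At an unadjusted p under 0.05, 3 members passed in ADAR3 WT over control, where 25.2% of all genes did, and 6 in R-mutant over control, where 24.8% of all genes did. The median log2 fold of the 10 was -0.12 in ADAR3 WT over control, beside 0.01 for all tested genes and -0.09 for the genes whose mean reached 10000. The median in R-mutant over control was 0.01, beside 0.03 for all tested genes and -0.07 for those of a mean of at least 10000, so the members' median lay below the one and above the other.

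**Figure D2:**
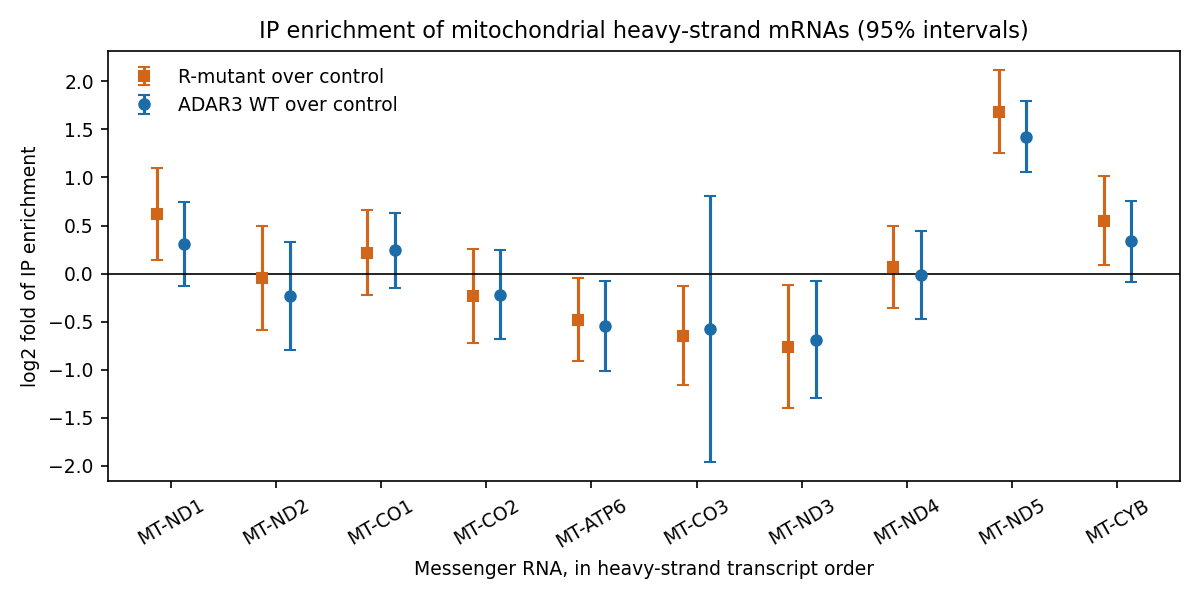
Log2 fold of IP enrichment with its 95% interval for the 10 messengers in transcript order, in R-mutant over control (squares) and ADAR3 WT over control (circles). MT-ND5 stands at 1.69 and 1.42, while the other 9 lie between -0.76 and 0.62.

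In both comparisons with control, MT-ND5 stood apart from every other member by more than their combined errors. In ADAR3 WT over control its log2 fold exceeded that of the next member, MT-CYB, by 1.09 (interval 0.30 to 1.88) and that of MT-ND3, the lowest, by 2.11 (1.13 to 3.09). All 9 differences between MT-ND5 and another member had intervals above 0, and none of the 36 differences among the others excluded 0. In R-mutant over control all 9 differences with MT-ND5 again lay above 0, the smallest being that with MT-ND1 at 1.07 (0.16 to 1.97). There 6 of the 36 other pairs also differed: MT-ND1 and MT-CYB each exceeded MT-ATP6, MT-CO3 and MT-ND3. In both comparisons the step from MT-ND5 to the next member was the only 1 of 9 steps between neighbours in the order that excluded 0. Both comparisons use the same control libraries, so the likeness of their values is not independent evidence.

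**Figure D3:**
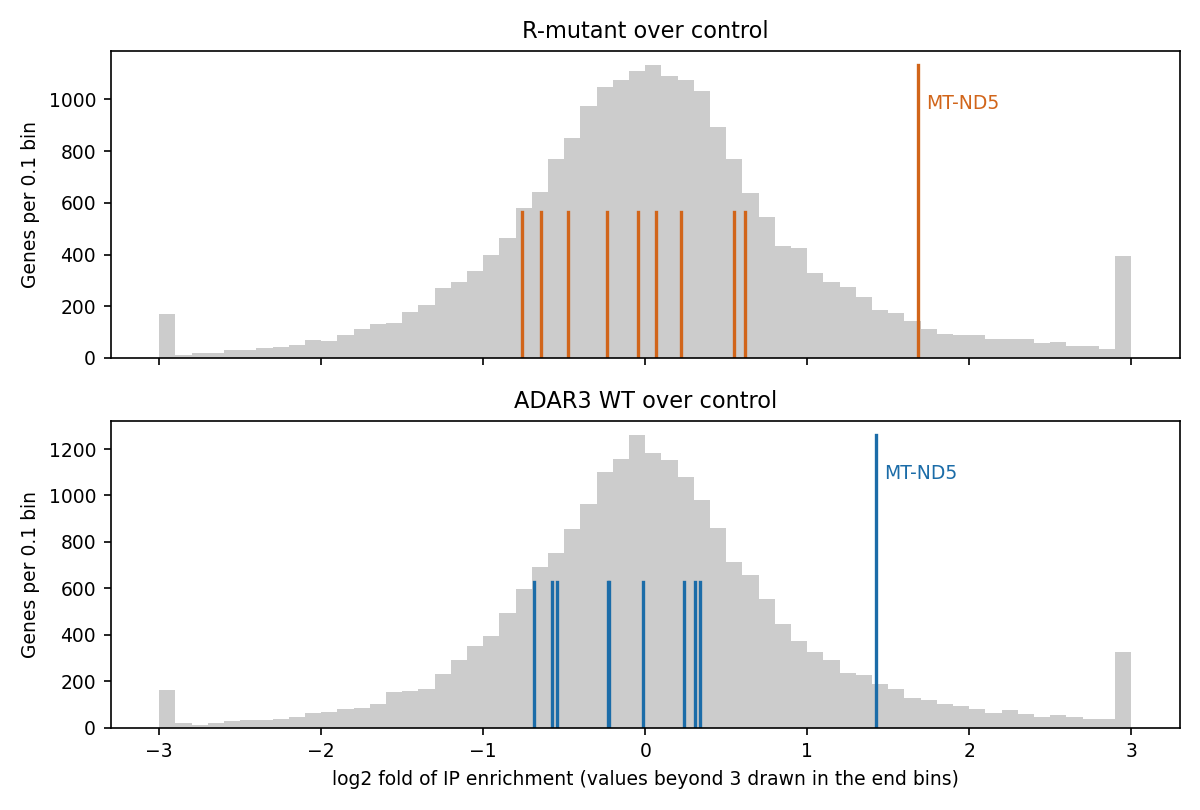
Number of genes per bin of 0.1 in log2 fold of IP enrichment (grey), with the 10 members as vertical lines, for R-mutant over control (21120 genes) and ADAR3 WT over control (21121 genes). MT-ND5, the tall line, had a higher fold than 94.0% of genes in R-mutant over control and 92.5% in ADAR3 WT over control, and the other 9 members lie within the bulk of the distribution.

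Among the members, longer genes tended to have higher IP folds, with exceptions. MT-ND4, with 1378 bases, had a lower fold than MT-ND1, with 956 bases, in both comparisons with control. Across the 10 members, gene length and log2 fold had a Spearman correlation of 0.79 (Pearson 0.85) in ADAR3 WT over control and 0.81 (Pearson 0.82) in R-mutant over control. Without MT-ND5 the Spearman correlations over 9 members were 0.72 and 0.73. Order along the transcript had a Spearman correlation of 0.20 with the fold in ADAR3 WT over control and 0.07 in R-mutant over control, and without MT-ND5 the sign turned in both, to -0.083 and -0.25. For the input level per length, the Spearman correlations with the fold over all 10 members were -0.30 in ADAR3 WT over control and -0.39 in R-mutant over control. Of the 36 differences among members other than MT-ND5, 0 excluded 0 in ADAR3 WT over control and 6 did in R-mutant over control. The points share libraries, normalization and, at gene borders, reads, so these are descriptions without a test.

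Between R-mutant and ADAR3 WT, the normal test detected no difference in the recovery of any heavy-strand messenger relative to other RNAs. In R-mutant over ADAR3 WT, 0 of 10 members were called by the normal test and 0 had an unadjusted p under 0.05, where 0.00428% and 0.624% of 23385 genes did. The share of 0.624% is far below the share of genes that a threshold of 0.05 would pass if no gene differed. The test was thus strict here, and the lack of calls says little. With the scores centred and rescaled to their spread over all genes, 0 members were called, and MT-ND1 had a normal test adjusted p of 0.315. The 10 log2 folds lay between -0.09 (MT-ND3) and 0.30 (MT-ND1) in the authors' deposited table, with a median of 0.06 beside -0.02 for all tested genes and -0.05 for those of a mean of at least 10000. For MT-ND5 the log2 fold was 0.25 ± 0.19 (SE) in the authors' deposited table, with an interval of -0.12 to 0.62 and a normal test adjusted p of 1.000. For MT-ND1 it was 0.30 ± 0.17 in the authors' deposited table, with an interval of -0.04 to 0.64. The other log2 folds of the authors' deposited table were 0.20 ± 0.18 for MT-CYB, 0.17 ± 0.31 for MT-ND2, 0.06 ± 0.21 for MT-ND4 and 0.05 ± 0.24 for MT-ATP6. They were -0.02 ± 0.19 for MT-CO2, -0.04 ± 0.18 for MT-CO1, -0.08 ± 0.24 for MT-CO3 and -0.09 ± 0.32 for MT-ND3 in the authors' deposited table. All 10 intervals excluded a 2-fold difference in either direction, as did those of 55.2% of all tested genes. A smaller difference, or a change of recovery common to all RNAs, is not excluded by these values.

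The authors' own adjusted p in the authors' deposited table passed 0.05 for all 10 members when R-mutant was set against ADAR3 WT, where 51.1% of genes passed. It passed for 10 members in R-mutant over control, where 40.8% of genes did, and for 9 in ADAR3 WT over control, where 43.0% of genes did, MT-CO3 being the exception at 0.0936 in the authors' deposited table. That p comes from a likelihood ratio test whose p-values fit a chi-square with 7 degrees of freedom, so it covers more terms than the fold printed beside it. The fold of R-mutant over ADAR3 WT is also no separate measurement. For every member, the value of R-mutant over control minus that of ADAR3 WT over control came within 0.0136 of the deposited value of R-mutant over ADAR3 WT.

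**Figure D4:**
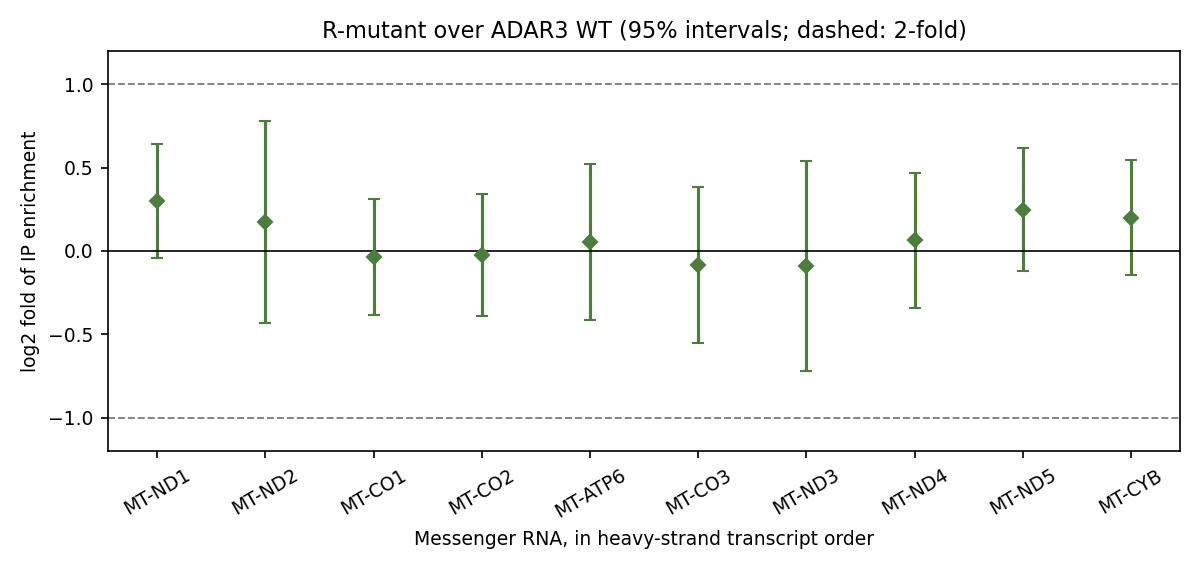
Log2 fold of IP enrichment in R-mutant over ADAR3 WT with its 95% interval for the 10 messengers in transcript order. Dashed lines mark a 2-fold difference in either direction, and all 10 intervals include 0 and stay inside these lines.

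Input RNA compared the total level of the messengers between ADAR3 WT and control cells. None of the 10 was called, with 0 by the normal test after adjustment, 0 at an unadjusted p under 0.05 and 0 by the authors' adjusted p, where 0.289%, 2.92% and 0.289% of 20411 genes passed. The share of 2.92% is below the share that a threshold of 0.05 would pass if no gene differed. The normal test was thus strict here too, and the lack of calls says little. All 10 log2 folds were below 0 in the authors' deposited table, where 43.4% of all tested genes were. They ranged from -0.25 ± 0.24 (SE) for MT-CYB to -0.06 ± 0.26 for MT-ND1 in the authors' deposited table. Their median was -0.20, beside 0.03 for all tested genes and 0.07 for the 524 genes whose mean reached 10000. All 10 intervals excluded a 2-fold change, as did those of 66.8% of tested genes. The messengers are cut from a shared precursor and measured in the same libraries, so their common sign is not 10 independent observations. MT-ND5 had an input fold of -0.22 ± 0.22 in the authors' deposited table, opposite in sign to its IP enrichment. Input is the denominator of IP enrichment as read here, so the signs are not independent. In bulk RNA, fewer cells containing an RNA and less of it per cell cannot be told apart.

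Input folds were lower toward the end of the transcript, with MT-ND2 out of that order. In the authors' deposited table they were -0.06 for MT-ND1, -0.14 for MT-ND2, -0.09 for MT-CO1, -0.09 for MT-CO2 and -0.19 for MT-ATP6. Farther along they were -0.20 for MT-CO3, -0.20 for MT-ND3, -0.21 for MT-ND4, -0.22 for MT-ND5 and -0.25 for MT-CYB in the authors' deposited table. The Spearman correlation of the fold with the order along the transcript was -0.96 over 10 members (Pearson -0.91), and -0.22 with gene length. The whole span was smaller than the standard error of MT-ND1 alone, and none of the 45 differences between members excluded 0. The correlation is therefore a description of these libraries, in which neighbouring genes share a precursor.

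**Figure D5:**
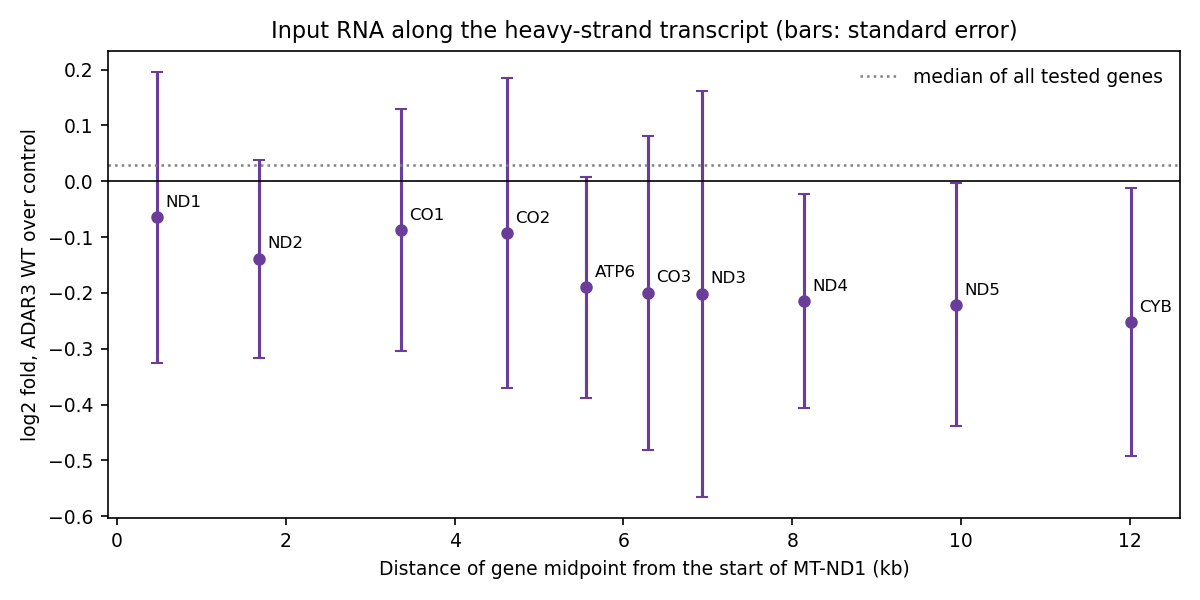
Log2 fold of input RNA in ADAR3 WT over control, with its standard error, against the distance of each gene's midpoint from the start of MT-ND1 in kb. Values lie between -0.06 at MT-ND1 and -0.25 at MT-CYB, all are under the median of all tested genes (dotted line), and their error bars overlap throughout.

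The genes most like the members in the 4 comparisons were sought among 6042 other genes whose mean reached 1000 in every table. By Euclidean distance of the 4 log2 folds to the members' medians, the nearest were ENSG00000110619 at 0.0459 and ENSG00000130653 at 0.0465, and the fifth nearest lay at 0.0678. Because only the members' IDs were paired with symbols, other mitochondrial genes and nuclear copies could not be set aside from this search.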

How the data were processed

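The 4 deposited comparison tables, keyed by Ensembl ID, were used as the authors made them. Per the submitters' processing notes, the tools were STAR 2.7.7a, featureCounts and DESeq2, with build GRCh38. The annotation is not stated, and the model formula is not given in the sources used here. Per the file headers, each table holds a mean signal (mean normalized count), a log2 fold change and the standard error of it, a test statistic (a score) and p-values with adjusted p-values. The input table has another 6 columns of values per library, which were left out since none of their names corresponds to a sample label. Depth per library is therefore unknown, and the deposited standard errors stand in for precision.

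The two-sided normal test of log2 fold over standard error was adjusted (Benjamini-Hochberg) over all genes with a deposited adjusted p. This test was taken over from an earlier analysis that chose it after seeing these data. Its code was tested on simulated data whose errors were drawn from the deposited standard errors, which does not test whether those standard errors are of the right size. All 10 members were named, in every comparison. Only the members' IDs were paired with symbols. ADAR3's own row and cell type markers were therefore not analysed here. Nor were the lists of tRNAs, rRNAs, nuclear copies, mitochondrial RNA factors and nuclear subunits. No sequence is printed, because the reference tables used hold none for these genes. Members and lists were chosen with earlier results of these data known. Gene positions and lengths came from RefSeq (GRCh38.p14). Python 3.11.15, numpy 2.4.6, pandas 2.3.3, scipy 1.17.1 and matplotlib 3.10.9 were used.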

Additional observations from a re-analysis of the deposited data

How the results depend on the processing

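No paired analysis was possible because no column of values per library could be matched to a label. For the same reason the planned fits with other count tools or size factors, and those leaving out a replicate, were not run. The count of members called was recomputed under 7 planned settings and 1 chosen after seeing the data. By the authors' adjusted p, which covers more terms than the fold, 9 members passed in ADAR3 WT over control, 10 passed in R-mutant over control, and the comparison of R-mutant with ADAR3 WT had 10. With only genes of a mean of at least 10000, chosen after seeing the data and with fewer genes tested, the count in R-mutant over control was 3, adding MT-ND1 (normal test adjusted p 0.0359) and MT-CO3 (normal test adjusted p 0.0419). Under the other settings (adjusted p under 0.01, an absolute log2 fold of at least 1, a mean of at least 50, no filter, centring, rescaling) the counts were the same as reported. Only centring and rescaling alter the folds, and no member's fold changed sign under either. MT-ND5 was called under all 8 settings in both comparisons with control, at adjusted p up to 0.000514 in ADAR3 WT over control and 0.000432 in R-mutant over control.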
